A study of Mus musculus with 39 samples.

Results

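Genes of enteric neurons and glia were followed in the gut wall of 2 inbred mouse strains. They were taken by name from a list of 32 genes, and 31 were found among the 34600 entries of the expression tables. Cartpt, a neuropeptide precursor on the list, is not analysed here. RNA came from 13 mice, 6 of the strain BALB/cJ and 7 of the strain C57BL/6J. Each mouse gave a colon, an ileum and a duodenum/jejunum library, so that 39 libraries fell into 6 groups. The labels name no transgene, deletion or treatment, and give neither sex nor age nor the layers of the wall that each piece contained. Levels are in TPM, a measure of transcript abundance scaled for transcript length and library size, so levels of different genes can be set side by side. A value after ± is the standard deviation (SD) over 6 BALB/cJ or 7 C57BL/6J mice. The p-values of strain tests within a tissue rest on the spread between these mice. Fits across tissues pooled the spread of the 6 groups. They took libraries of the same mouse as independent, except where the mouse was added to the fit as a block.

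The enteric nervous system consists of ganglia between the muscle layers and in the submucosa of the gut, where neurons are surrounded by glia. Both cell types descend from neural crest cells that migrate along the gut and depend on signalling through the receptors Ret and Ednrb. Excitatory motor neurons release acetylcholine and tachykinins onto the muscle, inhibitory motor neurons release nitric oxide and VIP, and other neurons, including fibres of sympathetic origin, hold neuropeptide Y.

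Promoter sequences from RefSeq (GRCm38.p6, 250 bases before to 50 after each start) were matched by symbol for 20 of the 31 genes. The stretch before the start of Npy is shown because Npy was the member with the largest strain difference in the colon. It lies at chr6:49822460-49822709 on the plus strand, and none of the 4 motifs searched was in it, so that it has no capitals.
Npy: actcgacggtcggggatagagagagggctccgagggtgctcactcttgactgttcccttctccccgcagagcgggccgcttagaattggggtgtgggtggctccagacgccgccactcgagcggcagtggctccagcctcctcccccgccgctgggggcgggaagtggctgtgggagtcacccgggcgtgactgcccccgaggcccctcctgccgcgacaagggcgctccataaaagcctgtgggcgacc

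Short windows of 30 bases are shown for members whose promoter held a motif before the start, with the motif in capitals. The motifs were CAGCACC and GGACAGC, both parts of the element bound by REST, a repressor of neuronal genes outside neurons, ACAAAG, a site of SOX factors, and TAATTNA, a core of homeodomain sites such as those of PHOX2 factors. Both strands were searched.
Scg2, chr1:79440027-79440056, minus strand, with GGACAGC and CAGCACC on the other strand: ctctataagccgaggaGCTGTCCGGTGCTG
Tubb3, chr8:123411417-123411446, plus strand, with CAGCACC on the other strand: gcggatctcggtgccGGTGCTGatgctgca
Ednrb, chr14:103843922-103843951, minus strand, with CAGCACC on the other strand: gaagttGGTGCTGatctgttattctctcgg
Tac1, chr6:7554946-7554975, plus strand, with TAATTNA: aggcgagggggcggcTAATTAAatattgag
Elavl4, chr4:110287716-110287745, minus strand, with TAATTNA on the other strand: tgcttcagccgggctTTAATTAccagacac
Syt1, chr10:109009174-109009203, minus strand, with ACAAAG on the other strand: tcatctctgatctaagCTTTGTtttcctat
In Scg2, a precursor of secretoneurin held in dense-core vesicles, the REST motifs stood side by side, ending just before the start. CAGCACC was in 3 of the 20 genes (Ednrb, Scg2 and Tubb3) and in 7.14% of all 32851 promoters searched, and GGACAGC in 3 (Scg2, Tubb3 and Vip) and in 6.56%. TAATTNA was in 2 (Elavl4 and Tac1) and in 10.1% of all promoters, and ACAAAG in 1 (Syt1) and in 18.7%. These percentages count promoters, while the member counts are of genes. The 20 genes had 25 promoters, of which 3 held CAGCACC, 3 GGACAGC, 1 ACAAAG and 3 TAATTNA. The Elavl4 promoters with TAATTNA overlap each other and hold the same sites. In Tubb3 and Vip, GGACAGC lies after the start and is not shown. Each window shown overlaps the annotated span of its gene. A match is a description of these letters and not evidence of binding.

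In 2 libraries of 1 mouse the region markers stood apart from the other libraries of their label. The library labelled C57BL/6J mouse 2 ileum held a summed level of 201 TPM for 3 ileum markers and 7127 TPM for 3 duodenum/jejunum markers, against 4068 to 11663 TPM and 84.9 to 1225 TPM in the other ileum libraries. The library labelled C57BL/6J mouse 2 duodenum/jejunum held 6455 TPM of the ileum markers, against 70.8 to 213 TPM in the others of that tissue, and 3311 TPM of the duodenum/jejunum markers, against 3743 to 9566 TPM. It thus held both sets of markers, while the library labelled ileum went against its label. Of the calls between tissues in C57BL/6J, those of Vip and Ret in the colon against the ileum and of Elavl4 in the colon against the duodenum/jejunum were lost without this mouse, and the values without it stand beside these and beside the counts of calls. In the 39 libraries the TPM summed to between 979558 and 996230, and 14557 to 16186 entries reached 1 TPM. The number of reads behind a value is unknown, since TPM keeps no record of it.

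Erbb3, the neuregulin receptor of glia that is also made by gut epithelium, was the most abundant member in all 6 groups, with means from 138.6 ± 40.8 TPM in the BALB/cJ duodenum/jejunum to 163 ± 24.98 TPM in the C57BL/6J ileum. The cell adhesion molecule L1cam, the peptides Vip and Tac1, the vesicle protein Scg2 and the receptor Ednrb were also among the abundant members, as was Uchl1 in the C57BL/6J colon at 14.8 ± 4.00 TPM, and 5 or 6 members had a mean of at least 10 TPM in each group. A mean of at least 1 TPM was reached by 24 members in the colon of each strain, by 21 in the BALB/cJ and 22 in the C57BL/6J ileum, and by 18 and 20 in the duodenum/jejunum. No member was at 0 in every library. The defining neuron genes Elavl3, Elavl4, Phox2a, Ret, Chrna3 and Prph and the defining glia genes Sox10, S100b, Gfap, Foxd3 and Cdh19 all had means above 0 in each group. In whole tissue, fewer cells of a type and less RNA per cell cannot be told apart.

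The colon had the highest mean of the 3 tissues for 24 of the 31 members in both strains. Differences of log2(TPM + 1) were tested with limma in a fit of all 39 libraries, and a gene was called at an adjusted p under 0.05. Of the 31 members, 25 reached 1 TPM in at least 6 libraries and were tested. In BALB/cJ, 13 were called higher in the colon than in the ileum and 2 lower, where 30.3% and 15.8% of all 17126 genes tested were called. Against the duodenum/jejunum, 18 were higher and 0 lower in BALB/cJ, beside 49% and 14.5% of all genes. At an unadjusted p under 0.05 in limma, 20 members and 66.3% of all genes differed there. In C57BL/6J, 20 were higher in the colon than in the ileum and 2 lower, beside 46.5% and 15.2% of all genes. Against the duodenum/jejunum, 19 were higher and 2 lower, beside 49.4% and 15.3%. Without C57BL/6J mouse 2, 18 were higher and 2 lower in each of these. Nefl and Sox10 reached 1 TPM in colon libraries only, and Gfap in all 13 colon libraries and 2 of the small intestine, so these 3 genes entered the test through the tissue in which they were high.

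**Figure D1:**
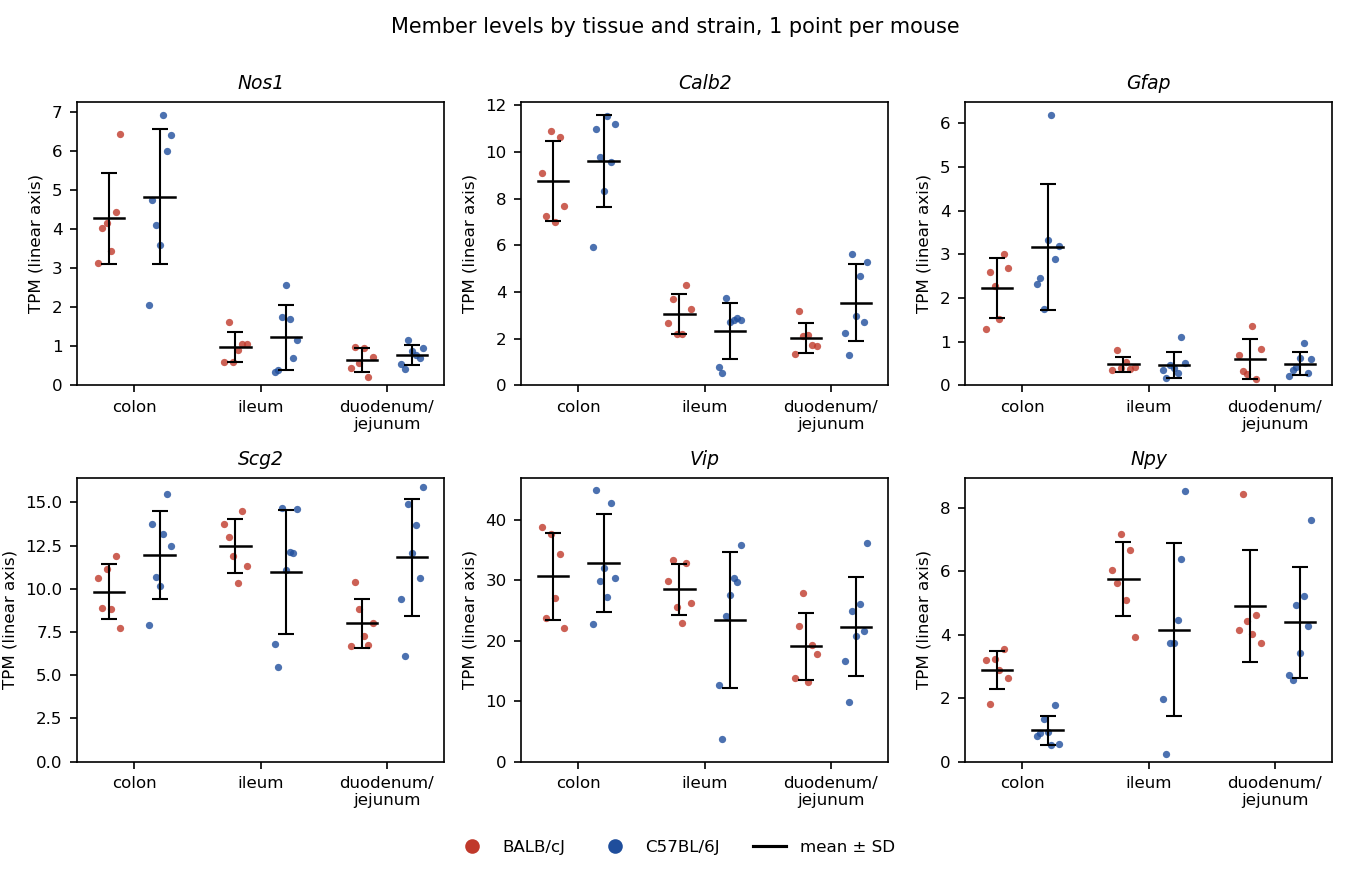
Levels in TPM of Nos1, Calb2, Gfap, Scg2, Vip and Npy in the colon, ileum and duodenum/jejunum of BALB/cJ (6 mice) and C57BL/6J (7 mice). Points are mice and bars show the mean with its SD. Nos1, Calb2 and Gfap stand highest in the colon, Scg2 and Vip overlap between tissues, and Npy is lowest in the colon.

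Among enzymes and calcium-binding proteins, Nos1 and Calb2 were higher in the colon than in either part of the small intestine. Nos1, which makes nitric oxide in inhibitory motor neurons, ranged in the BALB/cJ colon from 3.12 to 6.43 TPM with a median of 4.10, in the ileum from 0.600 to 1.63 with a median of 0.988, and in the duodenum/jejunum from 0.217 to 0.986 with a median of 0.649. In C57BL/6J the ranges were 2.07 to 6.91, 0.341 to 2.57 and 0.419 to 1.15 TPM, with medians of 4.74, 1.16 and 0.784. The colon of every mouse was above its own small intestine, and of the 4 comparisons of the colon the groups overlapped only in that with the C57BL/6J ileum. The ileum and the duodenum/jejunum overlapped in both strains. Mean Nos1 was 4.36-fold higher in the colon than in the ileum of BALB/cJ (log2 difference 1.41, adjusted p = 6.03e-07) and 3.93-fold in C57BL/6J (1.41, adjusted p = 7.75e-08). Against the duodenum/jejunum the folds were 6.54 and 6.21 (adjusted p = 1.1e-08 and 2.07e-09).

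Calb2, or calretinin, a calcium-binding protein of excitatory motor and sensory neurons, ranged from 7.01 to 10.9 TPM in the BALB/cJ colon with a median of 8.39, from 2.19 to 4.32 in the ileum with a median of 2.99 and from 1.34 to 3.18 in the duodenum/jejunum with a median of 1.93. In C57BL/6J it ranged from 5.94 to 11.5 TPM, from 0.535 to 3.76 and from 1.29 to 5.61, with medians of 9.77, 2.80 and 2.99. Colon libraries lay above all libraries of the small intestine in each strain. The folds against the ileum were 2.86 in BALB/cJ (adjusted p = 3.04e-05) and 4.13 in C57BL/6J (1.36e-08), and against the duodenum/jejunum 4.29 (1.28e-07) and 2.71 (4.29e-06).

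The neuronal cytoskeleton and growth genes followed the same order. Nefl, the light neurofilament chain, had means of 2.25 ± 0.371 TPM in the BALB/cJ colon, 0.460 ± 0.142 in the ileum, and 0.160 ± 0.0565 for duodenum/jejunum. In C57BL/6J its means were 2.03 ± 0.393, 0.235 ± 0.129 and 0.208 ± 0.0773 TPM. Colon and small intestine did not overlap, and the log2 differences of 1.15 to 1.48 had adjusted p between 3.46e-13 and 1.86e-16 in the 4 comparisons of the colon. The exons of Nefl overlap those of Nefm on the other strand, and since the strand used in quantification is not stated, reads of the 2 genes cannot be told apart there.

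Stmn2, a regulator of microtubules in axons, and Gap43, a growth cone protein, were higher in the colon in all 4 comparisons, with log2 differences of 0.82 to 1.31 and of 0.63 to 1.11. Tubb3, the neuronal beta-tubulin, and Prph, an intermediate filament of peripheral neurons, were called in 3 of the 4. In the colon against the ileum of BALB/cJ, Tubb3 differed by 0.52 (adjusted p = 0.0949) and Prph by 0.44 (0.165). L1cam, which guides crest cells and axons, had colon means of 65.2 ± 7.34 TPM for BALB/cJ and 75.8 ± 8.52 for C57BL/6J, ileum means of 45.6 ± 8.40 and 42.8 ± 12.1 and duodenum/jejunum means of 22.1 ± 5.01 and 31.4 ± 9.34. Its differences against the ileum were 0.52 (adjusted p = 0.0204) and 0.86 (4.75e-05), and against the duodenum/jejunum 1.54 (4.43e-09) and 1.30 (3.1e-08). The call against the BALB/cJ ileum was lost without BALB/cJ mouse 3 (0.45, adjusted p = 0.0779). The exons of L1cam overlap those of Arhgap4 on the same strand, which makes the split of reads between them uncertain.

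Of 5 genes of the synapse, vesicles and excitability, 2 were higher in the colon than in the ileum of BALB/cJ and 4 in C57BL/6J, and 3 were higher than in the duodenum/jejunum of each strain. Snap25, a fusion protein of synaptic vesicles, had log2 differences of 0.83 to 1.17 in the 4 comparisons, and Chrna3, a subunit of the nicotinic receptor of ganglia, of 0.33 to 0.59. The lowest Chrna3 difference, in the BALB/cJ colon against ileum, was not called without BALB/cJ mouse 1, 3, 4 or 6 (adjusted p from 0.0821 to 0.121). Syt1, the calcium sensor of vesicle release, was 0.90 higher in the colon than in the ileum of C57BL/6J (adjusted p = 5.51e-05), and its BALB/cJ difference of 0.18 was not called (0.489). Uchl1, or PGP9.5, a ubiquitin hydrolase used as a marker of all enteric neurons, was higher by 0.59 (0.0481) and 1.33 (1.31e-05) in BALB/cJ, and by 1.21 (1.96e-05) and 1.09 (7.54e-05) in C57BL/6J. The Uchl1 call against the BALB/cJ ileum was lost in 7 of the 13 fits that left out a mouse, those without BALB/cJ mouse 1, 3, 4, 5 or 6 or C57BL/6J mouse 4 or 6 (adjusted p from 0.0543 to 0.162). Elavl4, an RNA-binding protein of neurons, had 2.00 ± 0.573 TPM in the BALB/cJ colon and 2.18 ± 0.969 in the ileum (difference -0.05, adjusted p = 0.902). In C57BL/6J Elavl4 had 3.27 ± 1.03 TPM in the colon and 1.37 ± 0.833 in the ileum (difference 0.88, adjusted p = 0.00117). Against the duodenum/jejunum of C57BL/6J, Elavl4 was higher by 0.68 (0.01) with mouse 2 and by 0.51 (0.0553) without it. In BALB/cJ that difference was 0.63 (0.0261), and it was not called without BALB/cJ mouse 1, 3, 4 or 5 (adjusted p from 0.0509 to 0.0848). Scn3a, a sodium channel subunit, was called in 1 of the 4, higher in the colon than in the ileum of C57BL/6J (0.44, adjusted p = 0.016, and 0.0509 without C57BL/6J mouse 5).

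Among the peptides, fewer colon comparisons were called. Scg2 had means between 8.0 ± 1.42 TPM in the BALB/cJ duodenum/jejunum and 12.5 ± 1.57 TPM in the BALB/cJ ileum, and none of its 4 colon comparisons was called (adjusted p from 0.172 to 0.853). For Scg2 the BALB/cJ colon was below the ileum of the same mouse in 6 of 6 mice, although the groups overlapped. Vip, the peptide of inhibitory motor and secretomotor neurons, had colon means of 30.6 ± 7.21 and 32.8 ± 8.09 TPM, ileum means of 28.5 ± 4.23 and 23.4 ± 11.3, and duodenum/jejunum means of 19.05 ± 5.51 and 22.3 ± 8.20 (BALB/cJ before C57BL/6J). Of its 4 colon comparisons, that with the C57BL/6J ileum was called (0.67, adjusted p = 0.0445), and the library labelled C57BL/6J mouse 2 ileum held 3.70 TPM, the lowest of its group. Without this mouse the Vip difference was 0.24 (adjusted p = 0.318), and the call was lost in 9 of the 13 fits that left out a mouse, kept only without C57BL/6J mouse 4, 5 or 7 or BALB/cJ mouse 3. Tac1, the precursor of substance P, was called higher in the C57BL/6J colon than in the duodenum/jejunum (0.62, adjusted p = 0.0156, and 0.0509 without C57BL/6J mouse 6). In BALB/cJ this Tac1 difference was 0.50 (0.0737), with colon libraries at 13.1 to 19.8 TPM and no overlap with 8.73 to 12.9 TPM in the duodenum/jejunum.

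Npy ran the other way. In BALB/cJ, Npy ranged from 1.83 to 3.55 TPM in the colon with a median of 3.04, from 3.91 to 7.16 in the ileum with a median of 5.83 and from 3.74 to 8.44 in the duodenum/jejunum with a median of 4.29. In C57BL/6J it ranged from 0.521 to 1.79 TPM in the colon with a median of 0.902, from 0.235 to 8.52 in the ileum with a median of 3.72 and from 2.56 to 7.60 in the duodenum/jejunum with a median of 4.28. The colon lay below the small intestine without overlap except in the C57BL/6J ileum, where the library labelled mouse 2 was lowest. Against the ileum, Npy was 1.99-fold lower in the colon of BALB/cJ (-0.79, adjusted p = 0.0221) and 4.24-fold lower in C57BL/6J (-1.18, adjusted p = 0.000215, and -1.48 without mouse 2). The BALB/cJ call was lost without BALB/cJ mouse 2 or mouse 3 (adjusted p = 0.0629 and 0.0598). Against the duodenum/jejunum the C57BL/6J difference was called (-1.41, adjusted p = 1.71e-05) and the BALB/cJ difference was not (-0.57, adjusted p = 0.0789).

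Th, the enzyme that begins catecholamine synthesis, also had lower colon means, but it stayed under the level needed for a test. With BALB/cJ before C57BL/6J, its means were 0.122 ± 0.103 and 0.130 ± 0.151 TPM in the colon, 0.654 ± 0.199 and 0.968 ± 0.455 in the ileum, and 0.406 ± 0.146 and 0.577 ± 0.277 for duodenum/jejunum. Th was at 0 in 1 colon library of each strain, and the BALB/cJ colon and ileum did not overlap. The other members left untested were Nefm, the medium neurofilament chain, Elavl3, an RNA-binding protein of neurons, Slc18a3, the vesicular transporter of acetylcholine, and the transcription factors Phox2a and Foxd3 of the enteric lineage. In these 5 genes the colon mean was the highest of the 3 tissues in each strain, from 0.404 TPM for Phox2a in C57BL/6J to 0.959 TPM for Elavl3 in C57BL/6J.

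Of the receptors that the crest cells depend on, Ret and Ednrb differed in their order. Ret, the receptor of GDNF family ligands, was higher in the C57BL/6J colon than in the ileum (0.37, adjusted p = 0.00735), a call that was lost without C57BL/6J mouse 2 (0.26, adjusted p = 0.0551). It was higher than in the duodenum/jejunum in BALB/cJ (0.57, adjusted p = 0.000235) and C57BL/6J (0.63, adjusted p = 1.78e-05). Ednrb, the endothelin receptor that binds endothelin 3 and is also made by stromal and endothelial cells, ranged in BALB/cJ from 8.12 to 14.7 TPM in the colon with a median of 11.7, from 18.3 to 32.1 in the ileum with a median of 19.8, and from 5.07 to 15.5 in the duodenum/jejunum with a median of 10.35. In C57BL/6J the ranges were 7.47 to 10.8, 6.18 to 17.1 and 9.72 to 16.4 TPM with medians of 8.28, 14.5 and 14.5. The BALB/cJ ileum stood above the other BALB/cJ tissues without overlap. Ednrb was lower in the colon than in the ileum of both strains (-0.84, adjusted p = 0.000282 in BALB/cJ, and -0.57, adjusted p = 0.00432 in C57BL/6J, where it was -0.78 without mouse 2). Against the duodenum/jejunum it was lower in the C57BL/6J colon (-0.61, adjusted p = 0.00219), and in BALB/cJ the difference was 0.17 (0.426).

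The tested glial genes other than Erbb3 were higher in the colon in all 4 comparisons. Sox10, the transcription factor that keeps glial identity, had colon means of 0.810 ± 0.169 TPM for BALB/cJ and 1.46 ± 0.283 for C57BL/6J, and means of 0.313 to 0.421 TPM in the small intestine, without overlap. Gfap, the intermediate filament of glia, ranged from 1.30 to 3.01 TPM in the BALB/cJ colon and from 1.74 to 6.19 in the C57BL/6J colon, with small intestinal means of 0.466 to 0.605. Its colon overlapped with the BALB/cJ duodenum/jejunum, where 1 library reached 1.36 TPM, and with no other group. The log2 differences were 1.10 (adjusted p = 3.71e-06) and 1.03 (6.94e-06) in BALB/cJ, and 1.47 (1.6e-09) and 1.43 (2.62e-09) in C57BL/6J. S100b, a calcium-binding protein of glia, had differences of 0.58 to 0.97, and Cdh19, a cadherin of the Schwann cell lineage, of 0.77 to 1.35. Erbb3 was not called in any comparison (differences of -0.17 to 0.22 between tissues), and individual libraries ran from 99.2 to 215.5 TPM.

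**Figure D2:**
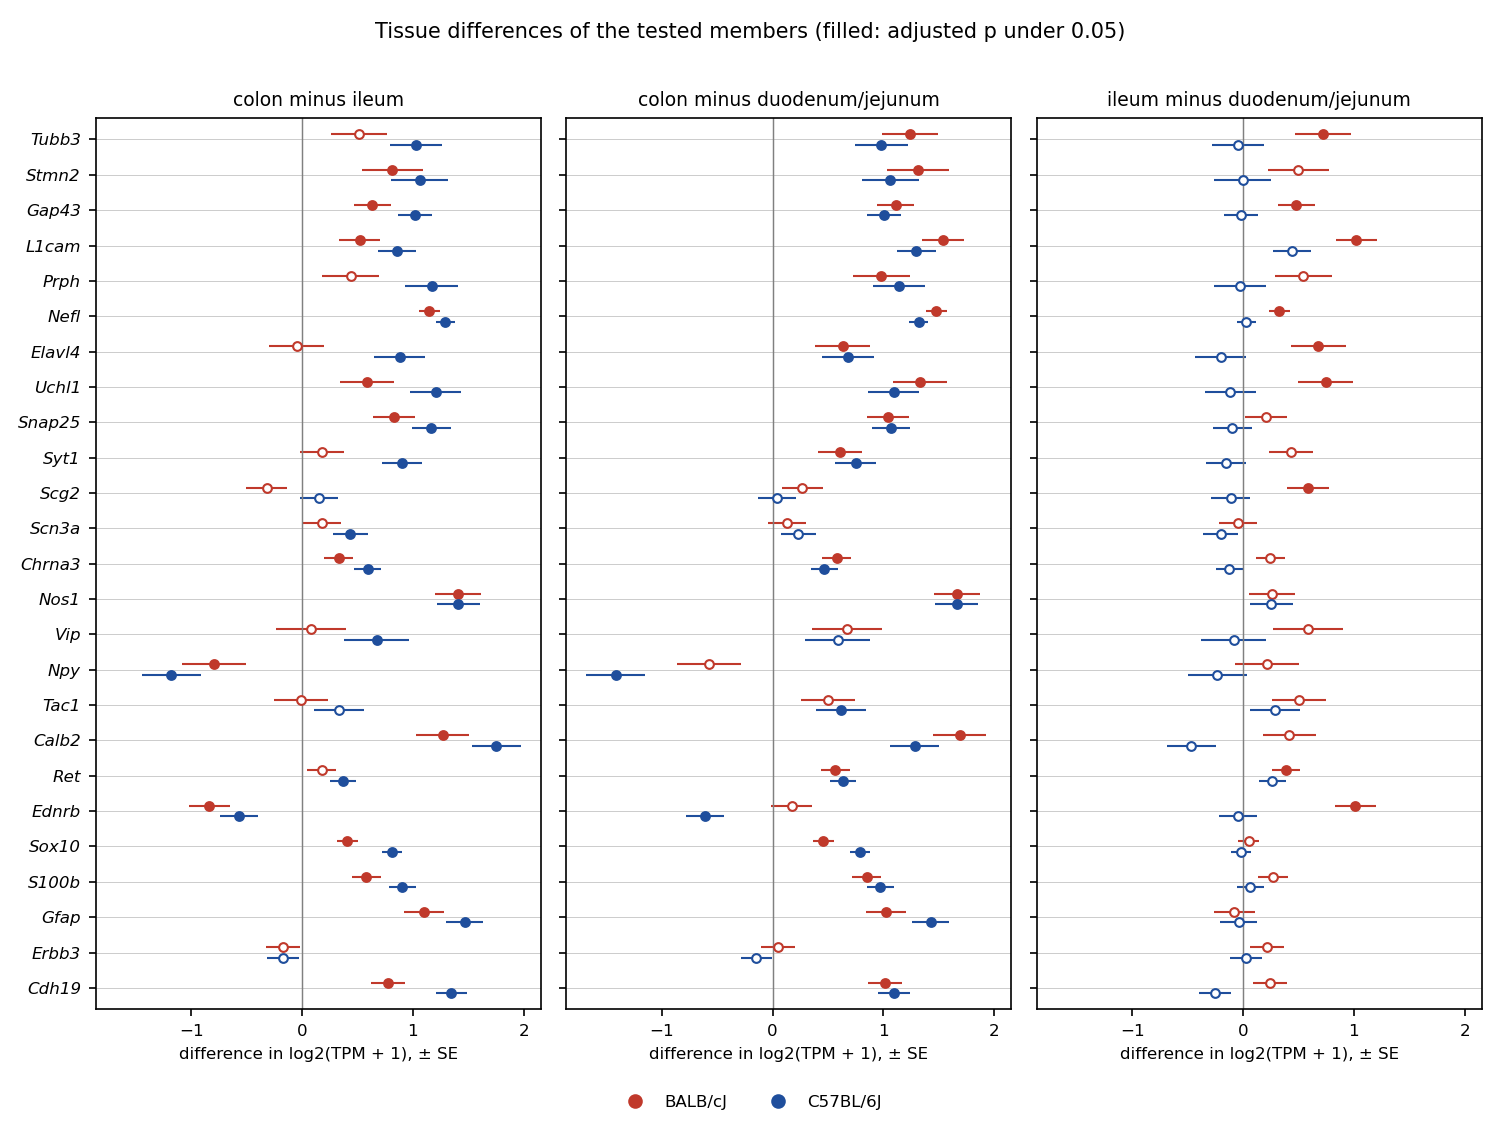
Differences of log2(TPM + 1) between tissues for the tested members in BALB/cJ and C57BL/6J, with the standard error from limma as bars and filled points for adjusted p under 0.05. Most members lie to the right of 0 in the 2 comparisons of the colon, and Npy and Ednrb lie to the left of 0 against the ileum.

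Within the small intestine, 9 of the 25 members were higher in the ileum than in the duodenum/jejunum of BALB/cJ and 0 were lower, beside 35.5% and 7.63% of all genes. The count of higher members thus lies at the share of all genes. The 9 members were Ednrb (1.01, adjusted p = 5.25e-05), L1cam (1.02, 4.77e-05), Nefl (0.33, 0.00447), Uchl1 (0.74, 0.0139), Tubb3 (0.72, 0.0204), Elavl4 (0.68, 0.0264), Scg2 (0.59, 0.0114), Gap43 (0.48, 0.019) and Ret (0.39, 0.0144). With size factors taken from the median ratio to a reference library (RLE), 3 of them were called, Ednrb, L1cam and Nefl, and without BALB/cJ mouse 5 there were 4, these 3 and Gap43. Gap43 was lost without BALB/cJ mouse 1 or 3, Scg2 and Tubb3 without mouse 1, and Elavl4 without mouse 2 or 4. In C57BL/6J, limma called 0 of 25 (11.3% of all genes), and at an unadjusted p under 0.05, 3 members and 22.6% of all genes differed. Without C57BL/6J mouse 2, 3 were higher in the ileum, L1cam (0.63, adjusted p = 0.00492), Tac1 (0.63, 0.00298) and Ret (0.35, 0.0266). With the mouse as a block, 1 was called, L1cam (0.44, adjusted p = 0.0393).

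Most genes were on average higher in the colon, so that the median over all genes tested was 0.11 and 0.29 against the ileum and the duodenum/jejunum of BALB/cJ and 0.24 and 0.28 in C57BL/6J. The median over the 25 members was 0.44, 0.85, 0.90 and 0.97. Size factors by RLE moved the median of all genes to between -0.008 and 0, and the member medians were then 0.34, 0.64, 0.72 and 0.72. In that scaling 11, 16, 17 and 17 members were higher and 3, 1, 3 and 3 lower. The shares of all genes given above belong to the fit without size factors and do not apply to these counts.

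**Figure D3:**
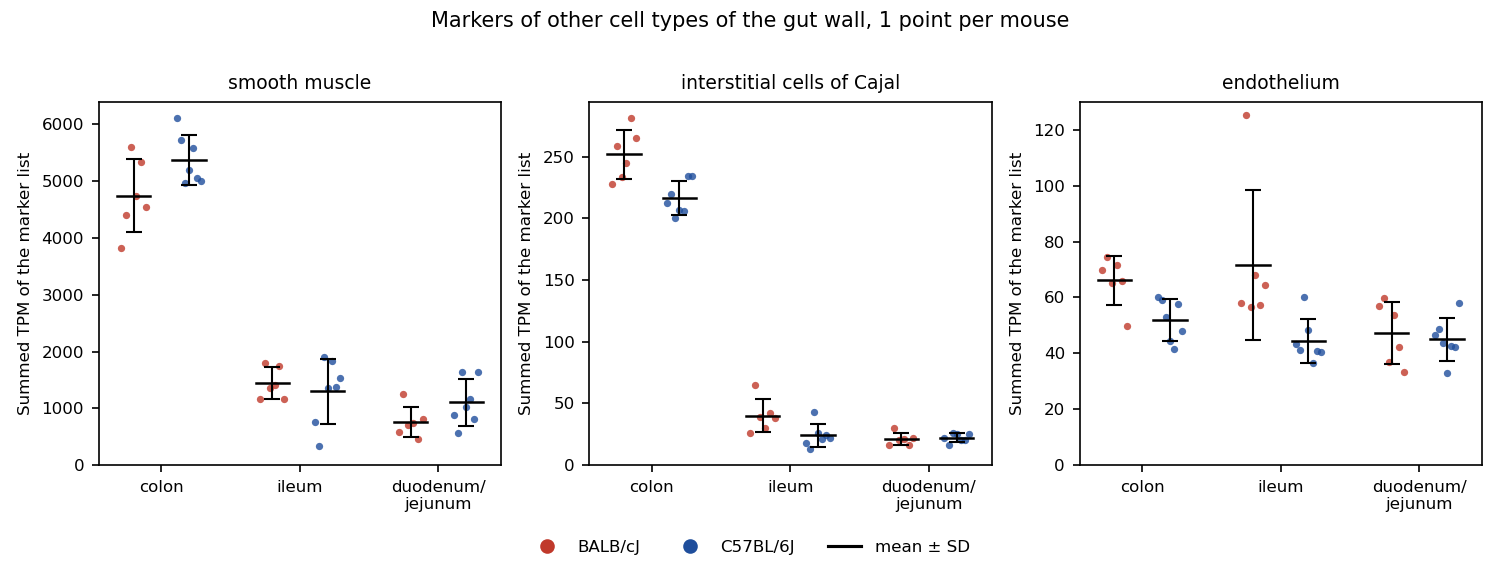
Summed TPM per library of 12 smooth muscle genes, 3 genes of interstitial cells of Cajal and 4 endothelial genes by tissue and strain. Points are mice and bars show the mean with its SD. Colon libraries lie above all small intestinal libraries for the muscle and Cajal lists.

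Smooth muscle genes moved with the same tissues. The 12 smooth muscle genes summed to between 3827 and 5595 TPM in the BALB/cJ colon and between 4965 and 6113 in the C57BL/6J colon. In the ileum they summed to 1165 to 1803 and 335 to 1902 TPM, and in the duodenum/jejunum to 460.2 to 1246 and 569 to 1646. Of these 12 genes, 11 were higher in the colon than in the ileum of BALB/cJ and 12 in each other colon comparison, and none of them was at 0 in any library. The 3 genes of the interstitial cells of Cajal, the pacemaker cells that lie beside the ganglia, summed to 201 to 281 TPM in the colon of either strain and to at most 64.8 TPM in the small intestine. As colon and small intestine do not overlap in muscle genes, tissue and muscle share cannot be told apart.

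A fit with the mean log2(TPM + 1) of the 12 smooth muscle genes as a covariate, added after the data were seen, changed the counts and several directions. It called 3 members higher and 10 lower in the colon than in the ileum of BALB/cJ, and 1 higher and 5 lower against the duodenum/jejunum. In C57BL/6J it called 4 higher and 4 lower, and 5 higher and 4 lower. The shares of all genes given above belong to the fit without the covariate and do not apply to these counts. With the covariate the median of all genes was -0.032 and 0.052 in BALB/cJ and 0.051 and 0.071 in C57BL/6J. The member medians were -0.162, -0.206, -0.104 and -0.13 in the same order. Nefl was still higher in the colon in all 4 comparisons, Gfap in 3, and Sox10 and Cdh19 in both of C57BL/6J, while Npy was lower in all 4. Of these, Nefl, Gfap and Sox10 had entered the test through the colon, so their colon excess is partly a result of the filter. For Uchl1 the sign turned, with -0.51 (limma adjusted p = 0.0464) and -0.45 (0.231) in BALB/cJ. In C57BL/6J the Uchl1 values were -0.25 (0.449) and -0.45 (0.154), neither of them called. Because muscle genes do not overlap between colon and small intestine, these fits cannot separate tissue from muscle share for any of these genes.

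**Figure D4:**
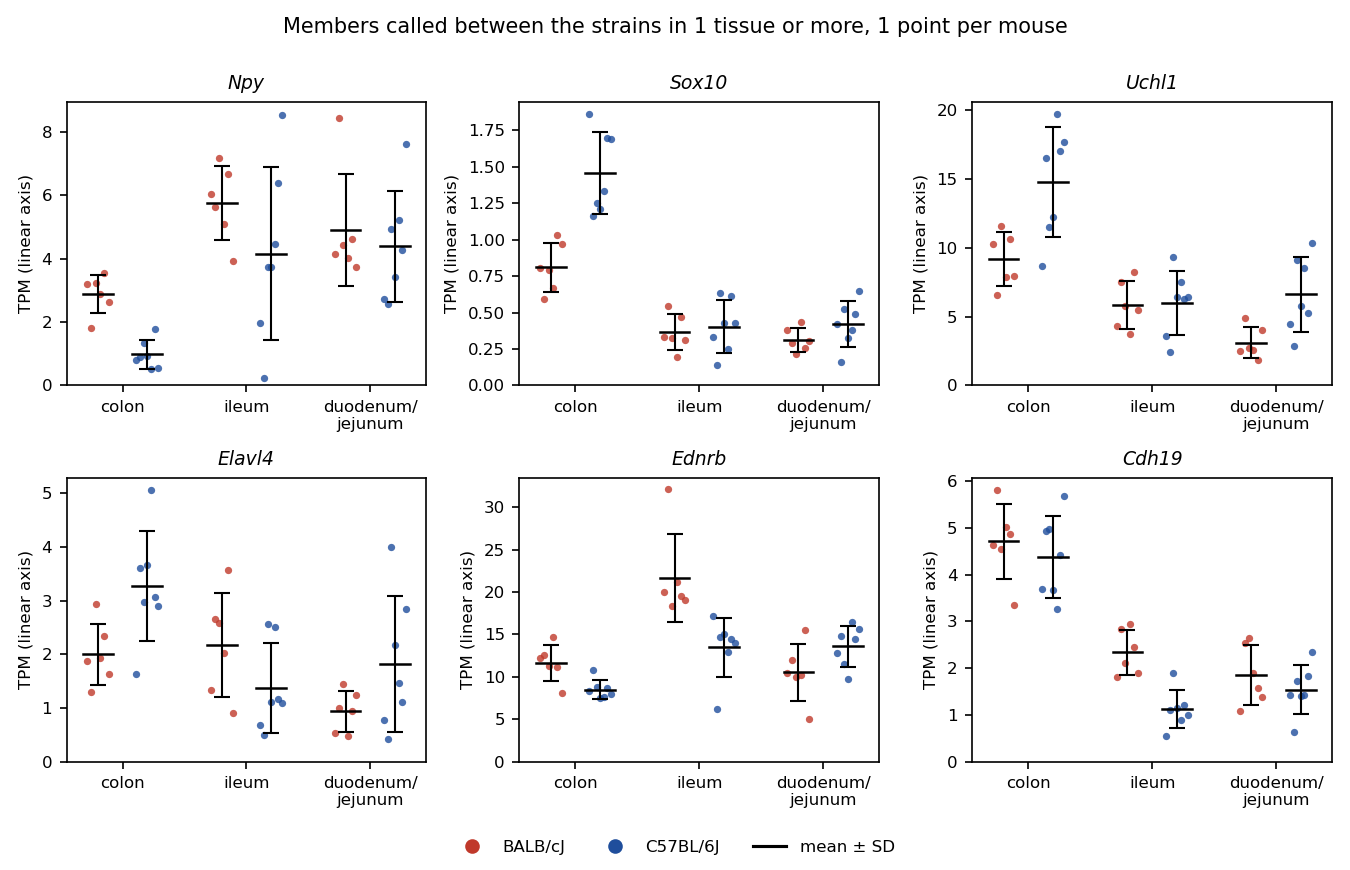
Levels in TPM of Npy, Sox10, Uchl1, Elavl4, Ednrb and Cdh19 in BALB/cJ (6 mice) and C57BL/6J (7 mice) by tissue. Points are mice and bars show the mean with its SD. In the colon, Npy is higher in BALB/cJ and Sox10 higher in C57BL/6J without overlap, and Ednrb does not overlap in the ileum.

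Strains were then compared within each tissue. In the colon limma called 5 of 25 members, 2 higher in BALB/cJ and 3 higher in C57BL/6J, where 25.3% of all genes were called (14.5% higher in BALB/cJ and 10.8% lower). The 5 of 25 lie below that share. Of the 25, 2 had groups without overlap, beside 11.5% of all genes. The neuropeptide gene Npy, at chr6:49822710-49829507 on the plus strand of GRCm38, had the largest difference. Its colon level was 1.83, 2.64, 2.89, 3.20, 3.23 and 3.55 TPM in the 6 BALB/cJ mice, and 0.521 to 1.79 TPM in the C57BL/6J mice. The lowest BALB/cJ library lay just above the highest C57BL/6J library. Mean Npy was 2.95-fold higher in BALB/cJ (log2 difference 0.99 with a standard error (SE) of 0.15, adjusted p = 0.000264). Npy reached 1 TPM in 6 BALB/cJ and 2 C57BL/6J colon libraries, so it was tested because of the strain in which it was high. In the ileum and the duodenum/jejunum the strains overlapped in Npy, with differences of 0.60 (adjusted p = 0.253) and 0.15 (0.772).

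Sox10, at chr15:79154908-79165240 on the minus strand, ranged in the colon from 0.590 to 1.03 TPM in BALB/cJ with a median of 0.798, and from 1.16 to 1.86 in C57BL/6J with a median of 1.33. All C57BL/6J libraries were above all BALB/cJ libraries (-0.44, SE 0.10, adjusted p = 0.00433). Sox10 reached 1 TPM in 1 BALB/cJ and 7 C57BL/6J colon libraries, so, like Npy, it was tested because of the strain in which it was high. The other tested glial genes were not called. In BALB/cJ and C57BL/6J, S100b had 2.52 ± 0.513 and 2.77 ± 0.323 TPM (adjusted p = 0.476), Cdh19 had 4.71 ± 0.800 and 4.38 ± 0.870 (0.641), and Gfap had 2.23 ± 0.681 and 3.16 ± 1.44 (-0.33, 0.254).

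Uchl1, at chr5:66676091-66687234, ranged in the colon from 6.61 to 11.6 TPM in BALB/cJ with a median of 9.14, and from 8.65 to 19.7 in C57BL/6J with a median of 16.5 (-0.61, SE 0.18, adjusted p = 0.0206). Elavl4, at chr4:110203722-110351909, ranged from 1.29 to 2.93 TPM with a median of 1.91 and from 1.63 to 5.05 with a median of 3.07 (-0.49, SE 0.17, adjusted p = 0.0469). The strains overlapped in both. Elavl4 was no longer called in 11 of the 13 fits that left out a mouse, with adjusted p from 0.0572 to 0.104 in these. The exons of Uchl1 overlap those of the antisense gene Uchl1os, and whether reads of both strands were counted is not stated. Ednrb, at chr14:103814625-103844402, was higher in the BALB/cJ colon, at 11.6 ± 2.15 against 8.50 ± 1.12 TPM (0.40, SE 0.11, adjusted p = 0.0174).

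The 20 other tested members were not called in the colon, among them Nos1 (-0.11, adjusted p = 0.749), Vip (-0.09, 0.735), Ret (-0.25, 0.0982) and Prph (-0.37, 0.115). Of the 25, 20 had a negative difference, and the median was -0.11 against 0.02 for all genes. Smooth muscle genes moved the same way, with 11 of 12 negative, 3 called lower in BALB/cJ and a median of -0.17, and summed to 4740 ± 643 TPM in BALB/cJ colons and 5379 ± 438 in those of C57BL/6J. Without C57BL/6J mouse 1, which had the lowest Uchl1 of its group, 8 were called, among them Prph (-0.49, adjusted p = 0.0113), Ret (-0.31, 0.0267) and Snap25 (-0.34, 0.0451). With the smooth muscle mean as a covariate, 2 of 25 were called in the colon, Npy (1.01, adjusted p = 0.00293) and Sox10 (-0.40, 0.0415). In that fit the member median was -0.12, beside 0.02 for all genes. Uchl1, Elavl4 and Ednrb were not called in it, and of these Ednrb was higher in BALB/cJ, unlike the muscle genes. The part of muscle in these differences was not tested. Other cell type lists also differed in the colon. The 4 adipocyte genes summed to 71.1 to 195 TPM in BALB/cJ and 31.9 to 66.4 in C57BL/6J, with 3 of 4 called higher, and the 4 B cell genes to 29.1 to 38.9 and 8.24 to 16.5 TPM, with 4 of 4 called higher. None of these 8 genes was at 0 in any colon library. The 4 endothelial genes summed to 66.1 ± 8.67 TPM in BALB/cJ colons and 52.0 ± 7.46 in those of C57BL/6J. Of these 4, 1 was called higher in BALB/cJ, beside 14.5% of all genes. The part of adipocytes, B cells and endothelium in the Npy and Ednrb differences was not tested.

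In the ileum 2 of 22 tested members were called, both higher in BALB/cJ where 20.4% of all genes were called and 17.2% were called higher. Of the 22, 1 had no overlap between the strains, beside 9.82% of all genes. Cdh19, at chr1:110888326-110977584, ranged from 1.81 to 2.94 TPM in BALB/cJ with a median of 2.27. In C57BL/6J it ranged from 0.554 to 1.90 TPM with a median of 1.11, so that it overlapped between the strains. Its mean was 2.09-fold higher in BALB/cJ (0.67, SE 0.14, adjusted p = 0.00509). Ednrb, at 18.3 to 32.1 TPM and 6.18 to 17.1 TPM, was 1.61-fold higher in the BALB/cJ ileum without overlap (0.67, SE 0.20, adjusted p = 0.0287). Leaving out the library labelled C57BL/6J mouse 2, at 6.18 TPM, gave 0.51 and kept the call. Leaving out BALB/cJ mouse 2, the highest at 32.1 TPM, gave 0.56 (adjusted p = 0.063), and the call was also lost without C57BL/6J mouse 5 (0.0503) or BALB/cJ mouse 4 (0.0518).

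Endothelial genes moved with Ednrb in the ileum. Their sum was 56.65 to 125 TPM in BALB/cJ and 36.5 to 60.2 in C57BL/6J, 3 of the 4 genes were called higher in BALB/cJ and none was at 0 in any library. The highest sum was that of BALB/cJ mouse 2. Other cell type lists moved the same way. Median strain differences in the ileum were 0.715 for the endothelial, 0.903 for the adipocyte, 0.735 for the B cell and 0.689 for the Cajal list. Nearer to the 0.168 of all genes were the smooth muscle list (0.326), the enteroendocrine list (0.275) and the 1 tested pancreas gene (0.086). The epithelial list (-0.095) and the 1 tested melanocyte gene (-0.041) had negative values. The part of any of these cells in the Ednrb difference was not tested. The median difference of the 22 members was 0.30 against 0.17 for all genes in the ileum. With RLE size factors, where the median of all genes was -0.002, the member median was 0.16 and 1 of 22 was called, which was Cdh19.

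In the duodenum/jejunum 1 of 21 tested members was called, Uchl1, which was lower in BALB/cJ, beside 9.5% of all genes (4.8% lower). Uchl1 ranged from 1.85 to 4.87 TPM in BALB/cJ with a median of 2.66 and from 2.90 to 10.3 in C57BL/6J with a median of 5.78. The mean was 2.14-fold higher in C57BL/6J, and the groups overlapped (-0.85, SE 0.24, adjusted p = 0.0388). No member was without overlap, beside 5.36% of all genes. The call was lost in 9 of the 13 fits that left out a mouse, those without BALB/cJ mouse 1, 3, 4 or 5 or C57BL/6J mouse 3, 4, 5, 6 or 7, and in the fits without a filter. Without C57BL/6J mouse 2, 2 were called, Uchl1 (-1.0, adjusted p = 0.00832) and Scg2 (-0.61, 0.0139). With the smooth muscle mean as a covariate Uchl1 was -0.42 and not called, and Scn3a was called (0.54, adjusted p = 0.0464). The muscle genes summed to 757 ± 269.9 and 1106 ± 409 TPM in the BALB/cJ and C57BL/6J libraries of this tissue, and their ranges overlapped.

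**Figure D5:**
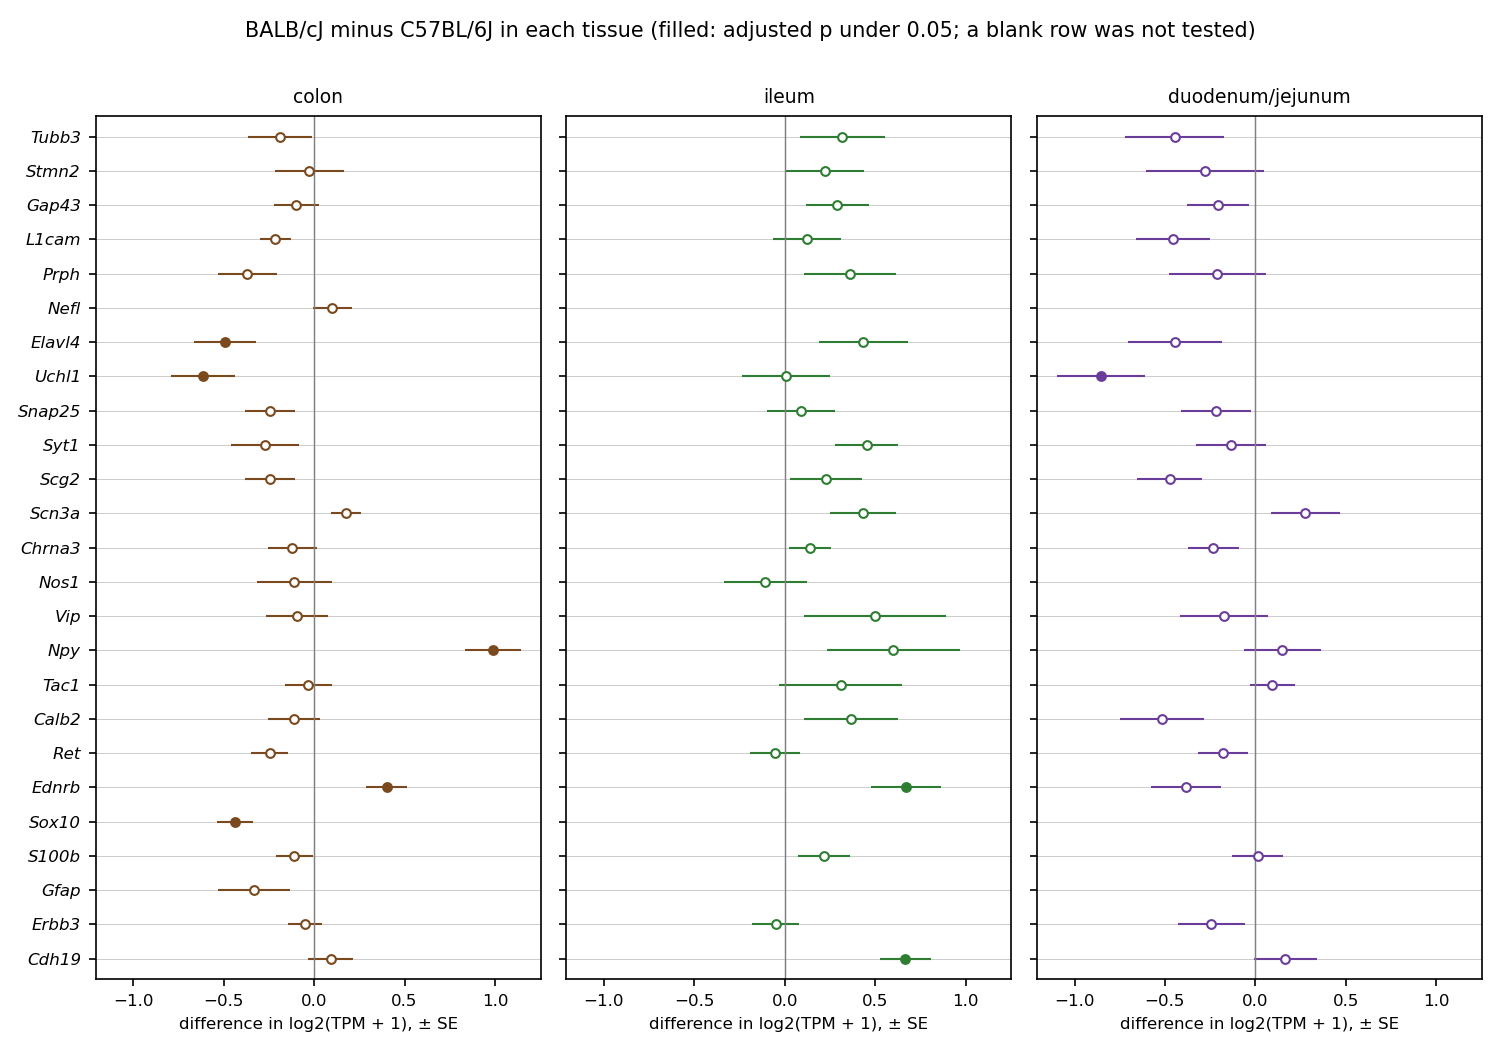
Differences of log2(TPM + 1) between BALB/cJ and C57BL/6J for the tested members in the 3 tissues, with the standard error from limma as bars and filled points for adjusted p under 0.05. Of the called members, Npy, Ednrb and Cdh19 lie to the right of 0 (higher in BALB/cJ) and Sox10, Uchl1 and Elavl4 to the left.

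Whether a strain difference was unlike between tissues was tested by the difference of the differences. For Ednrb, the ileum and the duodenum/jejunum differed by 1.05 (SE 0.25, adjusted p = 0.0209), with BALB/cJ higher in the ileum and C57BL/6J at the higher mean in the duodenum/jejunum (13.6 ± 2.40 against 10.5 ± 3.39 TPM). This was 1 of 25 members, beside 3.92% of all genes. The call held without C57BL/6J mouse 2 (0.87, adjusted p = 0.0241), and was lost without C57BL/6J mouse 5 (1.01, 0.0561) or BALB/cJ mouse 2 (0.98, 0.0511), with RLE size factors (0.89) and with the muscle covariate (0.90). With the mouse as a block, which pairs the tissues of an animal, Calb2 (0.88, adjusted p = 0.041) and Scg2 (0.70, 0.0452) were called besides Ednrb (1.05, 0.0212).

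Between colon and ileum, limma called 0 of 25 members for an unlike strain difference, beside 4.08% of all genes, and at an unadjusted p under 0.05, 5 members and 18.5% of all genes differed. With the mouse as a block 3 were called, Cdh19 (-0.58, adjusted p = 0.0488), Elavl4 (-0.93, 0.0459) and Sox10 (-0.40, 0.0494). Without C57BL/6J mouse 3, 2 were called, Elavl4 (-1.05, 0.049) and Sox10 (-0.46, 0.0373). Between colon and duodenum/jejunum, limma called 0 of 25, beside 5.59% of all genes, with 3 members and 17.4% of all genes at an unadjusted p under 0.05. There Ednrb was called without C57BL/6J mouse 2 (0.82, adjusted p = 0.0179) or BALB/cJ mouse 5 (0.91, 0.0363), and Sox10 with the muscle covariate (-0.38, 0.0447). The Npy differences between tissues of 0.39 and 0.84 had adjusted p of 0.615 and 0.251.

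Other genes of the same pathways were taken from lists of signalling partners, neuron genes, glia and Schwann cell genes and receptors. Their counts are read beside the shares of all genes, which were 30.3% higher and 15.8% lower for colon against ileum in BALB/cJ and 46.5% and 15.2% in C57BL/6J. Of 12 partners of the GDNF family and of endothelin 3, 6 were higher in the colon than in the ileum of BALB/cJ and 8 in C57BL/6J, and 1 was lower in each. The lower gene was Edn3, the ligand of Ednrb, with 4.13 ± 0.498 and 4.42 ± 0.793 TPM in the colon, 19.7 ± 5.03 and 24.5 ± 4.56 in the ileum, and 11.3 ± 0.966 and 13.1 ± 2.09 for duodenum/jejunum (BALB/cJ before C57BL/6J). The colon was the lowest tissue for Edn3 without overlap in either strain (-1.97, adjusted p = 2.21e-14, and -2.23, 4.7e-17, against the ileum). Gfra4, a co-receptor of Ret, was higher in the colon than in the ileum (0.83, 0.00026, and 1.33, 1.36e-08).

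Of 23 tested neuron genes outside the list, 7 were higher and 2 lower in the colon than in the ileum of BALB/cJ, and 15 and 1 in C57BL/6J, so that the BALB/cJ count lies at the share of all genes. Penk, the enkephalin precursor, had 8.20 ± 1.57 and 9.86 ± 2.76 TPM in the colon and 1.88 ± 0.626 and 1.71 ± 0.519 in the ileum (1.68, adjusted p = 3.81e-10, and 1.98, 5.24e-13). Grp, or gastrin-releasing peptide, was higher in the colon by 1.33 (1.58e-08) and 1.99 (6.25e-14). Of 10 tested glia and Schwann cell genes, 6 and 8 were higher and 0 lower, and Col28a1, a collagen of glia around peripheral neurons, had differences of 1.22 (6.4e-13) and 1.23 (3.66e-14). Of 11 tested receptors, 6 and 9 were higher and 0 lower. Npy4r, a receptor of pancreatic polypeptide, had 5.99 ± 0.597 and 6.26 ± 0.847 TPM in the colon and 0.286 ± 0.081 and 0.269 ± 0.131 in the ileum, and Tacr2, the neurokinin A receptor of muscle, had 7.79 ± 0.971 and 8.37 ± 0.488 and 0.867 ± 0.258 and 0.805 ± 0.710. The log2 differences of Npy4r were 2.44 and 2.51 (5.44e-25 and 1.5e-26). The ileum means of Npy4r and Tacr2 were under 1 TPM, so the colon, where both were high, was enough to bring them into the test.

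Between strains in the colon, 3 of 12 signalling partners were lower in BALB/cJ and 0 higher, where 10.8% and 14.5% of all genes were called. Gfra4 ranged from 1.37 to 2.14 TPM in BALB/cJ and from 2.19 to 4.02 in C57BL/6J (-0.70, adjusted p = 0.000285), and Gfra1 (-0.60, 0.028) and Ece1, which cleaves endothelin precursors (-0.19, 0.0261), were the others. Of 22 neuron genes 3 were lower, Ache, which breaks down acetylcholine (-0.78, 0.0067), Hand2 (-0.32, 0.0389) and Syt4 (-0.31, 0.0463), a count near the share of all genes. Of 8 glia and Schwann cell genes 2 were lower, Kcna1 (-0.41, 0.00397) and Mbp (-0.17, 0.0462). Of 11 receptors 3 were higher and 1 lower, and Npy2r, a receptor of neuropeptide Y, was higher in BALB/cJ (0.62, 0.00189). In the ileum 2 of 19 neuron genes were higher in BALB/cJ, Sst (0.58, 0.00052) and Syt4 (0.47, 0.025), 1 of 6 glia and Schwann cell genes, Scn7a (0.74, 0.0151), 1 of 8 receptors and 0 of 9 partners, beside 17.2% of all genes. In the duodenum/jejunum limma called 0 genes of these 4 lists. A separate list of 12 enteroendocrine genes had an ileum sum of 458.1 ± 86.38 TPM for BALB/cJ mice, against 287.8 ± 22.02 for the other strain. Of these 12 genes, 11 had a positive ileum difference and 1 a negative one, and 2 were called higher in BALB/cJ. Their median was 0.275, beside 0.168 for all genes. The part of enteroendocrine cells in the Sst and Syt4 differences was not tested.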

How the data were processed

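Per the labels, libraries were prepared from PureLink RNA by a TruSeq protocol for total RNA, after RiboZero removal of ribosomal RNA. The submitters' processing notes name kallisto 0.44.0 and the build GRCm38. An annotation is not named in these sources. Values were deposited by the authors as log2(TPM + 1), in 1 table for each tissue, and were turned back to TPM for levels. Per tissue 26 names turned into dates were left out, at most 0.240% of TPM in a library, and 0 columns belonged to no sample.

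Tests used limma 3.58.1 in R 4.3.3 with a variance trend on log2(TPM + 1), 2-sided, with Benjamini-Hochberg adjustment over all genes tested and a threshold of 0.05. The strain fits used the 13 libraries of a tissue, and the tissue and between-tissue fits all 39 libraries with 6 group means. Genes needed 1 TPM in at least 6 libraries. The pseudocount of 1 makes differences of low genes smaller than folds, which are ratios of mean TPM. Depth is unknown, so precision rests on the spread between mice. The code was tested on simulated data.

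Alternatives were RLE size factors, a pseudocount of 0.1, no filter, a replicate block, a smooth muscle covariate and each mouse left out. Tissues of the same strain and number come from the same mouse. Correlations of their deviations from the group means ran from -0.162 to 0.382 over 39 pairs, with 27 over 0.1. Numbers shared between strains stand for different animals. Coordinates are from GENCODE M21 on GRCm38. Figures were drawn with Python 3.11.15 and matplotlib 3.10.9. All members were described, and from each pathway list at most 3 called genes per comparison, by smallest adjusted p. The members and lists were chosen with earlier results of these data known. The covariate in the tissue fits was added after the data were seen.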

Additional observations from a re-analysis of the deposited data

Results flagged for a closer look

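In 144 combinations of a member and a group, 9 libraries (6.2%) stood apart from the rest of their group by Dixon's criterion, and chance alone marks about 1 in 20 groups. In BALB/cJ these were Ednrb in the ileum of mouse 2 at 32.1 TPM, Npy in the duodenum/jejunum of mouse 2 at 8.44 TPM, Stmn2 in the duodenum/jejunum of mouse 6 at 8.33 TPM, S100b in the duodenum/jejunum of mouse 5 at 0.408 TPM and Elavl3 in the colon of mouse 1 at 1.34 TPM. In C57BL/6J they were Ednrb in the library labelled ileum of mouse 2 at 6.18 TPM, Tac1 in the duodenum/jejunum of mouse 4 at 6.82 TPM, Chrna3 in the colon of mouse 1 at 0.995 TPM and Gfap in the ileum of mouse 6 at 1.11 TPM. The strain difference of Ednrb was unlike in the ileum and the duodenum/jejunum, by 1.05 on the log2 scale in the limma test of that difference (adjusted p = 0.0209), with BALB/cJ above C57BL/6J in the ileum without overlap and overlapping groups in the duodenum/jejunum.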

How the results depend on the processing

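Of the 85 calls of a member between tissues, 85 held with the mouse as a replicate block, 82 with a pseudocount of 0.1 and 82 without a filter, and 70 with RLE size factors. Of the 9 strain calls, the Ednrb difference between tissues among them, 7 held with RLE size factors, 8 with the pseudocount, 7 without a filter and 4 with the muscle covariate. The numbers of members called moved as follows. With RLE size factors they were 1 for the strains in the ileum, 3 for ileum against duodenum/jejunum in BALB/cJ and 0 for the strain difference in the ileum against that in the duodenum/jejunum, and without a filter 0 for the strains in the duodenum/jejunum. With the muscle covariate they were 2 for the strains in the colon, 6 for colon against duodenum/jejunum and 2 for ileum against duodenum/jejunum in BALB/cJ, 8, 9 and 1 for colon against ileum, colon against duodenum/jejunum and ileum against duodenum/jejunum in C57BL/6J, and 1 and 0 for the strain differences in colon and ileum against that in the duodenum/jejunum. The shares of all genes given in the results belong to the fits without these changes and do not apply to these counts. The cause was not tested.

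The paired analysis with the replicate block gave 2, 1 and 0 members for the strains in colon, ileum and duodenum/jejunum, where numbers do not mark the same animal. Correlations between strains at the same number ran from -0.313 to 0.214 over 18 pairs, with 3 over 0.1. It gave 1 for ileum against duodenum/jejunum in C57BL/6J, and 3 and 3 for the strain differences in colon and duodenum/jejunum against that in the ileum. It changed no other call beyond a factor of 1.5.

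Leaving out each of the 13 mice gave 4 to 8, 1 to 3 and 0 to 2 members for the strains in colon, ileum and duodenum/jejunum. It gave 11 to 16, 16 to 21 and 4 to 12 for colon against ileum, colon against duodenum/jejunum and ileum against duodenum/jejunum in BALB/cJ, 20 to 22, 20 to 22 and 0 to 3 in C57BL/6J, and 0 to 2, 0 to 1 and 0 to 1 for the differences of strain differences.

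With the muscle covariate 28 tissue calls changed sign, 36 kept their sign but were lost and 21 held. Of the 28, limma called Uchl1 against the ileum of BALB/cJ (adjusted p = 0.0464) and Vip against the ileum of C57BL/6J (0.00466). Against the duodenum/jejunum of BALB/cJ it called Prph (0.0125) and Syt1 (0.0396). The others were not called at the turned sign. In BALB/cJ the values turned to -0.011 for Gap43, -0.041 for L1cam and -0.513 for Uchl1 against the ileum, and against the duodenum/jejunum to -0.08 for Calb2, -0.834 for Elavl4, -0.89 for Prph, -0.272 for Ret, -0.206 for Snap25, -0.681 for Syt1, -0.579 for Tubb3 and -0.452 for Uchl1. In C57BL/6J they turned to -0.315 for Elavl4, -0.355 for Prph, -0.315 for Ret, -0.104 for Scn3a, -0.149 for Syt1, -0.459 for Tubb3, -0.248 for Uchl1 and -1.124 for Vip against the ileum, and against the duodenum/jejunum to -0.245 for Calb2, -0.589 for Elavl4, -0.477 for Prph, -0.092 for Ret, -0.009 for Snap25, -0.367 for Syt1, -0.358 for Tac1, -0.59 for Tubb3 and -0.452 for Uchl1. Unknown depth and 6 untested low members limit what can be seen of genes under 1 TPM.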
